A study of Mus musculus with 2 samples.

Results

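The 9 genes described here mark the precursors of oligodendrocytes and the lineage they give rise to. They were taken by name: the receptor gene Pdgfra, the proteoglycan genes Cspg4 and Vcan, the membrane protein gene Lhfpl3, and the transcription factor genes Olig1, Olig2, Sox8, Sox10 and Nkx2-2. They are 9 of the 21938 protein-coding genes of GENCODE M21, an annotation of the mouse mm10 genome, on chromosomes 1 to 19, X and Y. The rule that names them uses no measured value, though they were chosen with earlier results of these data known. Each gene was given a window of its body plus 10 kb on either side, 914.7 kb in all, and each of their 35 annotated starts a promoter window of 500 bases on either side.

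Oligodendrocyte precursors are the dividing glial cells that persist in the adult cortex and supply new myelin-forming oligodendrocytes. Platelet-derived growth factor acts on them through the receptor that Pdgfra encodes. Olig1 and Olig2, Sox8 and Sox10, and Nkx2-2 encode transcription factors that set and carry forward the lineage. Such cells are a minority among the neurons and other glia of the cortex.

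Open chromatin was mapped by DNase-seq: DNase I cuts DNA left free of nucleosomes, and the cut ends are sequenced. The tissue was left cerebral cortex of female B6CASTF1/J mice aged 18 to 20 months, F1 hybrids that carry a C57BL/6J and a CAST/EiJ genome. The labels name no treatment and give 1 group of 2 libraries, called library 1 and library 2 after their replicate numbers. The labels give these separate tissue samples but the same donor identifier, so the spread between them may be technical, and the design holds no contrast of conditions.

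For each library the authors deposited peaks, which are regions of dense cutting with a signal value, and footprints, which are short stretches protected from cutting, most but not all of them within the peaks. The normalization of the signal is not stated and the number of reads is unknown, so the ratio of a signal between libraries is a description on the deposited scale, and no test of a single peak was possible. All values below describe bulk tissue, in which a site open in few cells and a site weakly open in many cannot be told apart. As a check of the tissue, a promoter peak was present in both libraries at all 6 markers of cortical excitatory neurons. It was present in both at none of 9 markers of hindbrain, liver and erythroid cells, although the hindbrain gene En1 had a weak promoter peak, of 0.561, in library 2.

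The sequences of 9 peaks are given first, because the values below refer back to them. They were read from the plus strand of the mm10 genome (RefSeq assembly GRCm38.p6), and capitals mark bases inside a footprint in both libraries. At starts only the part of the library 1 peak outside annotated UTRs is shown. The peak at the alternative starts of Pdgfra is shown from chr5:75156350-75156480, the peak upstream of that gene from chr5:75143301-75143480, the only peak of the Sox10 window found in both libraries from chr15:79148661-79148860, and the strongest shared peak of Vcan far from a start from chr13:89668121-89668300. These 4 hold letters close to the binding site of CTCF, an insulator protein.
Pdgfra alternative starts: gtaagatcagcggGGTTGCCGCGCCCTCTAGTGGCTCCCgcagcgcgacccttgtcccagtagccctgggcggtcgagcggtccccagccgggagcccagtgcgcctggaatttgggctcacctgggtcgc
Pdgfra upstream: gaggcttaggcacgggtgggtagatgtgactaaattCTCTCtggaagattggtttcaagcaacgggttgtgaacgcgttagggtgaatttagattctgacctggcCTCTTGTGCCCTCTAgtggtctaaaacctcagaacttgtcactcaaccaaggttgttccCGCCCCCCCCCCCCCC
Sox10 downstream: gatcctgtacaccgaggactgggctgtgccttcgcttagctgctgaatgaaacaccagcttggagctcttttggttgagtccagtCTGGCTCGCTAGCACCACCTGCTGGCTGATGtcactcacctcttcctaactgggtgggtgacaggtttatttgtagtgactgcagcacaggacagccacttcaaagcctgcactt
Vcan intron: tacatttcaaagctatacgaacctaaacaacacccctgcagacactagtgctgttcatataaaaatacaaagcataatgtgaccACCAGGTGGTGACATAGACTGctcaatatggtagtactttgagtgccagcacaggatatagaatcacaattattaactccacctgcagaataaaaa

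Of the transcription factor promoters, those of Olig1 (chr16:91269541-91269771), Olig2 (chr16:91225241-91225456) and Sox8 (chr17:25570687-25570880) are shown because they are open in both libraries and each hold 17 CpG. The Olig2 sequence has no base in capitals.
Olig1 promoter: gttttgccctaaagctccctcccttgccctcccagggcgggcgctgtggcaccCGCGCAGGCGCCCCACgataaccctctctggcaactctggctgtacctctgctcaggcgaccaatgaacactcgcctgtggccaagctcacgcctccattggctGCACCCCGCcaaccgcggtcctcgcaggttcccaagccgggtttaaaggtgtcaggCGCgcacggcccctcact
Olig2 promoter: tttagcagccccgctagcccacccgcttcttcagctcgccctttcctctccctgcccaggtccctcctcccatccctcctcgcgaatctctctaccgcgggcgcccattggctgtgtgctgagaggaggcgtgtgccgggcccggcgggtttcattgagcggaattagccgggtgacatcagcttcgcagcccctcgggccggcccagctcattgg
Sox8 promoter: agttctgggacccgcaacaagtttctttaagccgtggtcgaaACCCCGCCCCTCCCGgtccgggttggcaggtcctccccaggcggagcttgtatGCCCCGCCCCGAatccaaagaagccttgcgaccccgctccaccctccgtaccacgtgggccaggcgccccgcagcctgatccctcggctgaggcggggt

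The last pair comes from inside Cspg4 (chr9:56869601-56869820) and Lhfpl3 (chr5:23225181-23225360), where the strongest shared peak over 500 bases from any start lay in an intron.
Cspg4 intron: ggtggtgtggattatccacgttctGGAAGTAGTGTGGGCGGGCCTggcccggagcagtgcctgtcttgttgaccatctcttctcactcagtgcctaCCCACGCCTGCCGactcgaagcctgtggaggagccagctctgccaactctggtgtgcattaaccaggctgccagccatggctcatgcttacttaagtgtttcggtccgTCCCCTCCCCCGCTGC
Lhfpl3 intron: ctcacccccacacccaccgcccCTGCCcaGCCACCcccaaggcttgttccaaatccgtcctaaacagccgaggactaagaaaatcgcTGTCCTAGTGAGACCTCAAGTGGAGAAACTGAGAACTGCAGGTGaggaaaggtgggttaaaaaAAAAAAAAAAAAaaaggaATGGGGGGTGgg

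Most of the 9 genes were open at a start. A promoter peak was found in both libraries for 7 of the 9 genes, against 63.6% of all protein-coding genes. By library it was found for 8 of 9 genes in library 1, where the share of all genes was 64.5%, and for 7 of 9 in library 2, where it was 66.5%. Sox10 had none in either library and Nkx2-2 had a peak in library 1 alone. The promoter signal, the strongest peak in any promoter window of a gene or 0 where there is none, had a median over the 9 genes of 1.11 in library 1 and 1.55 in library 2 (mean 1.33 ± 0.31, SD, n = 2). Over all protein-coding genes these medians were 1.31 and 1.55, and 4 of the 9 genes lay above them in each library. Among those of all protein-coding genes that were open in both libraries the medians were higher, at 3.13 and 3.47, and of the 9 genes Sox8 alone lay above these.

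**Figure D1:**
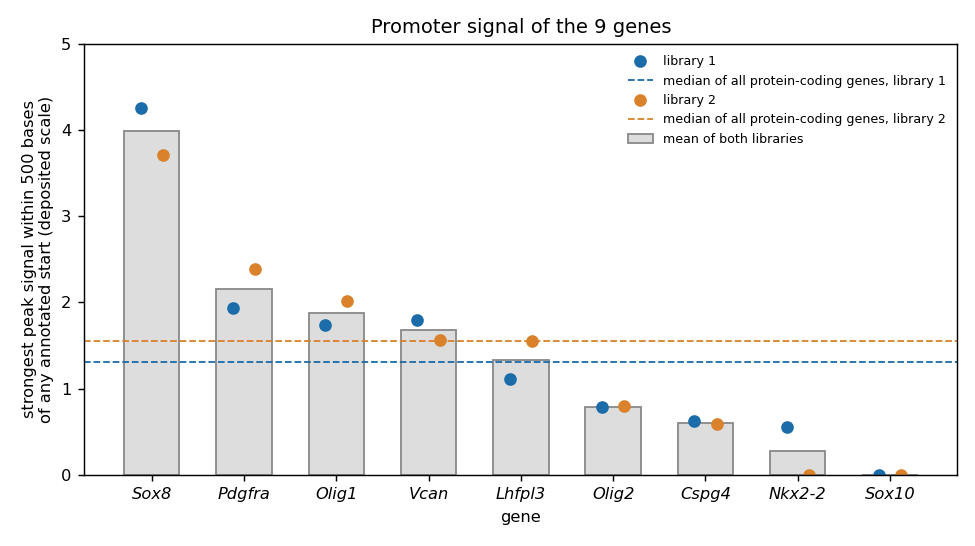
Promoter signal (vertical axis, deposited scale) of each of the 9 genes (horizontal axis), with points for the 2 libraries, bars for their mean and dashed lines for the median over all protein-coding genes in each library. Sox8 stands highest, at 4.26 in library 1 and 3.71 in library 2, and Sox10 is at 0 in both.

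Among the genes that act at the cell surface, Pdgfra was open near its alternative starts and not at its 5′ end. Pdgfra, the receptor through which precursors respond to growth factor, has 9 annotated starts on chromosome 5. None of the 5 most 5′ starts, from position 75152292 to 75153586, had a peak or a footprint in either library, nor any base called cut above background at a false discovery rate of 0.05. Within 500 bases of the protein-coding starts at 75155899 and 75156833, the strongest peak (75156261 to 75156480, centred 4.08 kb inside the gene) had a signal of 1.93 in library 1 and 2.39 in library 2 (2.16 ± 0.326). That peak lies more than 250 bases from both starts, and with promoter windows of 250 bases the mean promoter signal of Pdgfra was 0.596. A further shared peak lay 4.95 kb inside the gene at 1.22 and 1.21. Upstream, at -8.9 kb and inside the gene Gm19583, a peak of 1.29 and 1.24 was found in both libraries, and a weaker pair of 0.708 and 0.543 lay at -0.971 kb. All 5 peaks of library 1 in the window were shared, and library 2 had 3 more, none above 0.647.

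Cspg4, which encodes the NG2 proteoglycan that gives these cells an alternative name, had its signal in the introns rather than at the start. Its 5′ start, on chromosome 9, had a weak peak of 0.626 in library 1 and 0.586 in library 2 (0.606 ± 0.0285), and the start of Odf3l1 lies in the same promoter window. This mean was 0.299 with the shorter peak list and 1.99 with promoter windows of 2000 bases, which take in other peaks of the gene. The intronic peak at 4.68 kb reached 3.18 and 3.19 (3.18 ± 0.00689), above 93.9% of the peaks of library 1 and 93.3% of those of library 2. Intronic pairs at 24.9 kb (1.94 and 2.04) and 26.6 kb (1.58 and 1.39) also exceeded the start. All 3 were found in both libraries with nearly the same signal.

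Vcan, the gene of the large matrix proteoglycan versican, was open at its 5′ end on chromosome 13 and more so at an internal start. The 5 starts at the 5′ end shared a peak of 0.585 in library 1 and 0.832 in library 2. The protein-coding start at 89740397, 2112 bases inside the gene, had a peak of 1.80 and 1.56 (1.68 ± 0.172). The 3 remaining starts, over 20 kb inside the gene, had no peak in either library. The strongest shared peak far from a start lay in an intron at 74.3 kb and was weak, at 0.640 and 0.395.

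Lhfpl3, a tetraspan membrane protein gene used as a marker of these precursors, is the longest of the 9 at 529.5 kb. Its 5′ start on chromosome 5 had a peak of 1.11 in library 1 and 1.55 in library 2 (1.33 ± 0.31), with 11 and 6 footprints in the promoter window, and the start of A930003O13Rik lies within 500 bases of that peak. The internal start at 23100552 had none. The window held 16 peaks in library 1 and 22 in library 2, of which 11 in each were shared. These were spread along the gene, and the intronic pair at 479.2 kb (1.22 and 1.39) was about as strong as the start. Per 10 kb of window Lhfpl3 had 0.291 and 0.4 peaks, the lowest of the 9 genes in library 1.

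The neighbouring genes Olig1 and Olig2, which encode basic helix-loop-helix factors, lie 41.1 kb apart on chromosome 16, and Olig1 had the higher promoter signal in both libraries. The Olig1 promoter peak had 1.74 in library 1 and 2.02 in library 2 (1.88 ± 0.194). The Olig2 promoter peak had 0.783 and 0.795 (0.789 ± 0.00905). Of the 1001 bases in the Olig1 promoter window, 88.1% in library 1 and 81.8% in library 2 passed a false discovery rate of 0.05, against 18.5% and 22.2% in the median protein-coding gene. For Olig2 these shares were 30.8% and 50.2%. The median covers genes with and without a promoter peak, and each share is over the windows of all starts of a gene. Olig1 and Olig2 have 1 start each, so genes with several starts are not measured on like terms.

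The wider surroundings of the pair differed too. Olig1 had 8 peaks in library 1 and 7 in library 2, with 6 shared, among them a pair at -3.62 kb of 1.16 and 0.789 and 3 over its exon. Olig2 had 2 peaks in library 1 and 7 in library 2, and the promoter peak was the only shared one. The interval between the genes held 4 peaks in library 1 and 3 in library 2, all of them within 10 kb of 1 of the genes. No peak was found in the middle of the interval in either library.

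Sox8 and Sox10, which encode related SoxE factors, stood at opposite ends of the 9 genes. The Sox8 promoter, on chromosome 17, had 4.26 in library 1 and 3.71 in library 2 (3.99 ± 0.388), above 77.6% and 70.3% of protein-coding genes. The noncoding gene 2810468N07Rik starts in the same window and its exon overlaps the peak, so the signal cannot be assigned to either. The Sox8 window was the most crowded of the 9, with 5.65 and 4.84 peaks per 10 kb, against medians of 0.779 and 0.829 over all protein-coding genes. Its strongest peak, 5.60 and 5.65, lay at the start of the neighbouring gene Lmf1. Away from any start, the strongest lay 14.3 kb past the Sox8 5′ end, inside the gene AC131323.3, at 4.18 and 3.80. The library 2 peak there was 580 bases wide and also covered a further library 1 peak of 4.13. It overlapped another library 2 peak, of 3.57. Within Sox8 the peak at 2.71 kb had 2.27 and 2.86.

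Sox10, a driver of myelin gene expression, had no peak, no footprint and no base that passed a false discovery rate of 0.05 at any of its 4 starts on chromosome 15 in either library. With promoter windows of 2000 bases its mean promoter signal was 0.225, from a weak peak of library 1 alone. Its whole window held 2 peaks in library 1 and 1 in library 2. The shared peak lay 16.5 kb from its 5′ end inside the neighbouring gene Polr2f, with 1.28 in library 1 and 1.92 in library 2 (1.60 ± 0.456). Set among 200 protein-coding genes of like span, the Sox10 window stood by its number of peaks at percentile 30 in library 1 and 22.8 in library 2.

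Nkx2-2, which encodes a homeodomain factor of oligodendrocyte differentiation, had no peak at its coding starts on chromosome 2. The starts of its protein-coding transcripts, at 147186101 and 147186404, had none in either library. A peak of 0.558 in library 1 lay at the 5′ end of a noncoding transcript of the gene, and library 2 had none there. The strongest peak of the window lay over an exon near the 3′ end, 16.4 kb from the 5′ end, with 1.99 in library 1 and 2.71 in library 2 (2.35 ± 0.509). A second shared peak at 15.3 kb had 0.783 and 1.10.

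**Figure D2:**
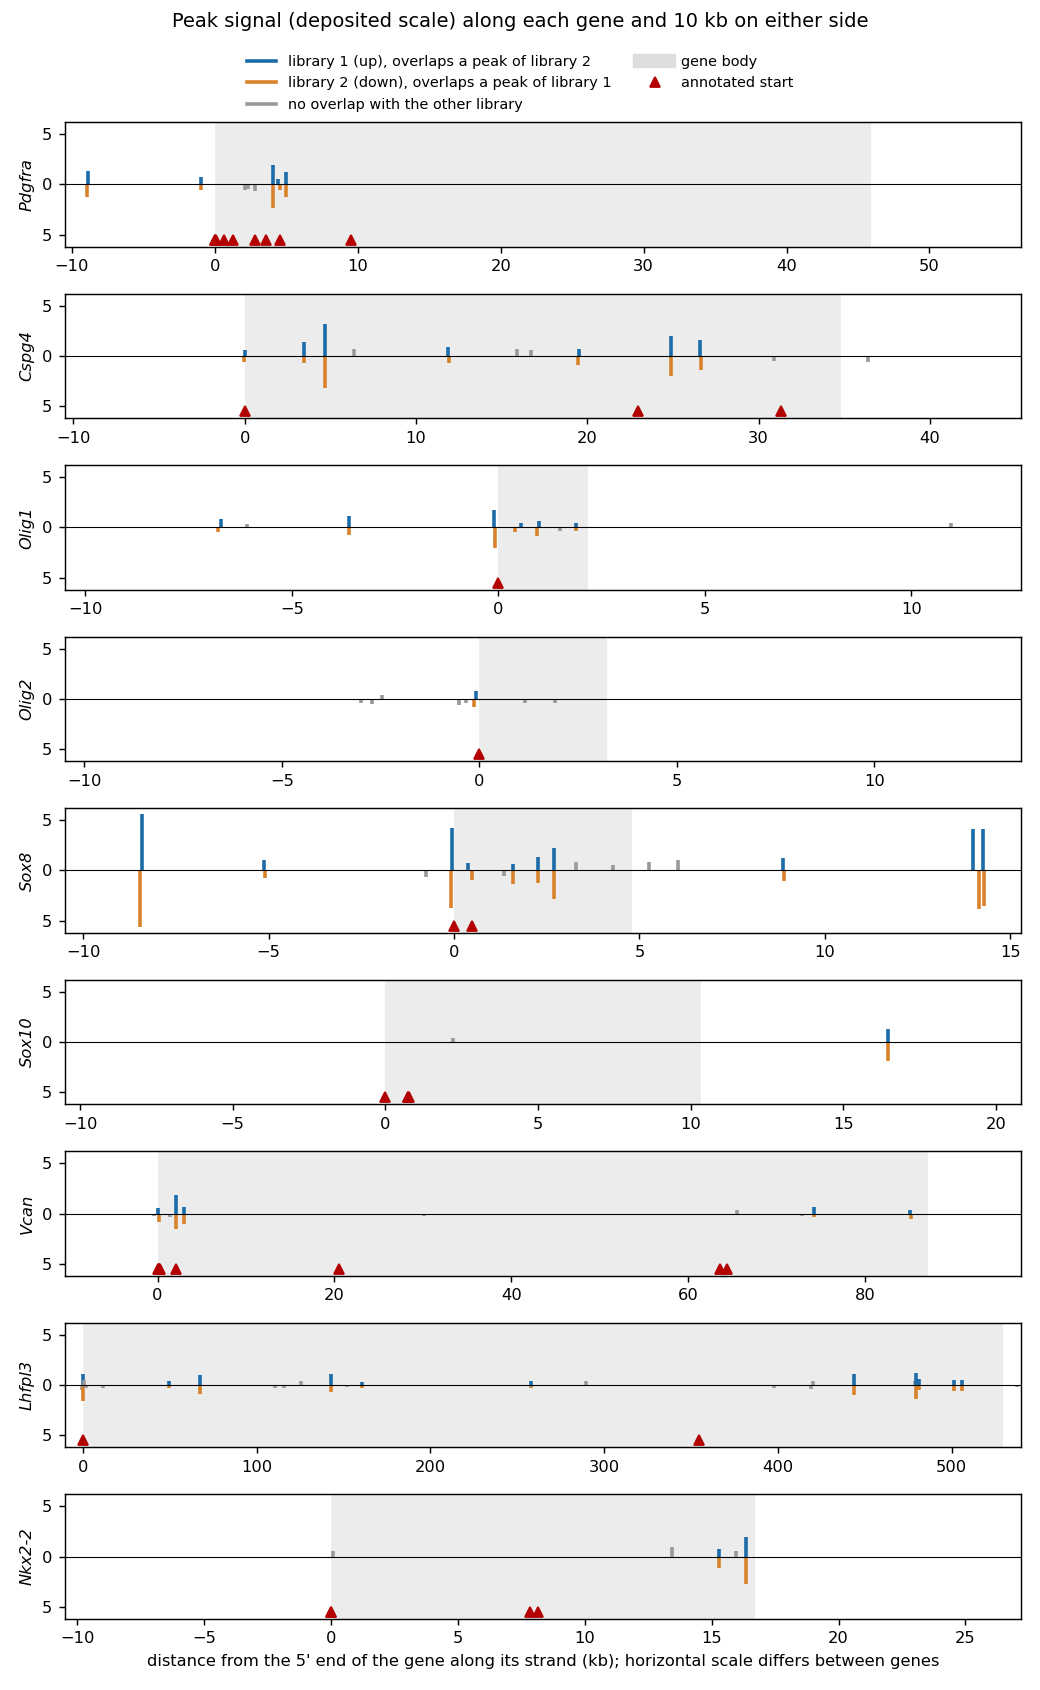
Peak signal (vertical axis, deposited scale, library 1 upward and library 2 downward) against distance from the 5′ end of each gene in kb (horizontal axis), with shading for the gene body, triangles for annotated starts and grey for peaks that overlap none of the other library. Peaks of Cspg4 and Nkx2-2 stand highest inside the gene, Pdgfra peaks gather at starts 3607 and 4541 bases inside the gene, and the body of Sox10 holds no shared peak.

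In all, the windows of the 9 genes held 68 peaks in library 1 and 77 in library 2. Of these, 13 and 19 lay in promoter windows of the genes, and 40 and 43 of the others lay in the gene bodies. Of the 35 starts, 16 had a peak in each library. The median signal of the 68 and 77 peaks in the windows, 0.704 and 0.586, compares with 0.640 and 0.641 for all peaks of each library. The median of the 9 genes was 0.861 and 1.21 peaks per 10 kb, against 0.779 and 0.829 for all protein-coding genes.

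Most peaks of the 9 genes were found in both libraries. In library 1, 48 of 68 peaks (70.6%, exact binomial 95% interval 58.3 to 81%) overlapped a peak of library 2, against 77.8% of all peaks. In library 2, 48 of 77 (62.3%, 50.6 to 73.1%) overlapped a peak of library 1, against 73.2% of all peaks. The interval of library 1 includes the value of all peaks and that of library 2 lies just below it. These intervals cover the counting of regions only, and peaks of a gene are not independent.

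The unshared peaks were mostly weak. Their median signal, 0.534 in library 1 and 0.388 in library 2, lay below the 1.03 and 0.919 of the shared ones, and the highest was 1.02 in library 1, downstream of Sox8. In library 1, 6 of the 20 unshared peaks were at or above the median signal of all peaks of the library, and in library 2, 3 of 29. Of 29 unshared peaks in library 2, 11 lay in Lhfpl3 and 6 in the Olig2 window. The other library had a base that passed a false discovery rate of 0.05 in 2 of the 20 unshared peaks of library 1 and in 5 of the 29 of library 2.

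Where a peak was found in both libraries its signal was similar. The 47 matched pairs, each the strongest overlap of the other, had a median log2 ratio of library 2 over library 1 of -0.00 (SD 0.42). None differed by more than 2-fold, and 23 were higher in library 2. Over all 99347 matched pairs the median was 0.09 (SD 0.40), and 1.59% differed by more than 2-fold.

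**Figure D3:**
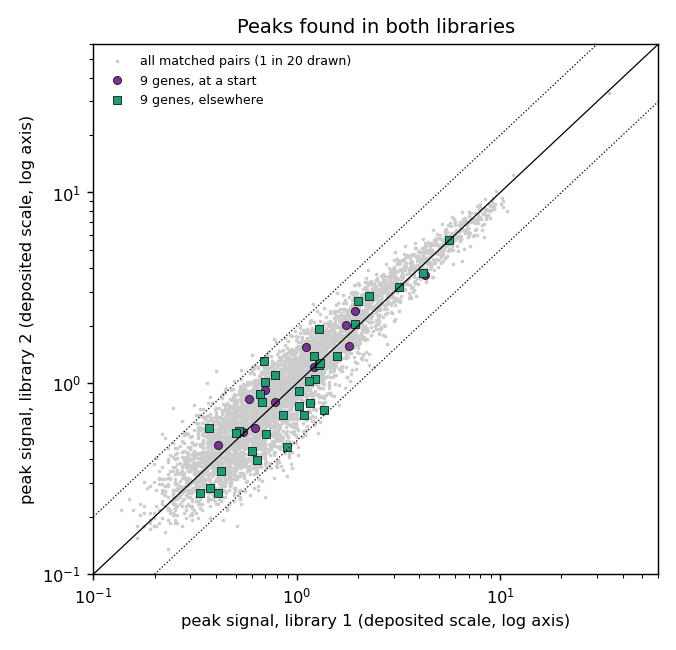
Signal of matched peaks in library 1 (horizontal axis) and library 2 (vertical axis), both on log axes in the deposited scale, for the 9 genes (coloured by whether the peak lies at a start) over a sample of all matched pairs in grey. The solid line is equality and the dotted lines 2-fold, and all 47 pairs of the 9 genes lie between the dotted lines.

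Footprints were about as dense in the peaks of these genes as elsewhere. The windows held 171 footprints in library 1 and 172 in library 2, of which 154 and 144 lay within peaks. Those within peaks came to 10.1 and 9.55 per kb of peak, against 9.16 and 9.62 over all peaks. A footprint in a promoter window was found in both libraries for 7 of the 9 genes, against 61.5% of all protein-coding genes. Sox10 and Nkx2-2 were the exceptions. Of the footprints, 45.6% in library 1 and 46.5% in library 2 overlapped a footprint of the other library, against 52.4% and 43.4% over all footprints. The Sox8 window had the most in library 1, with 44 (35 in library 2), and Lhfpl3 the most in library 2, with 44 (40 in library 1).

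**Figure D4:**
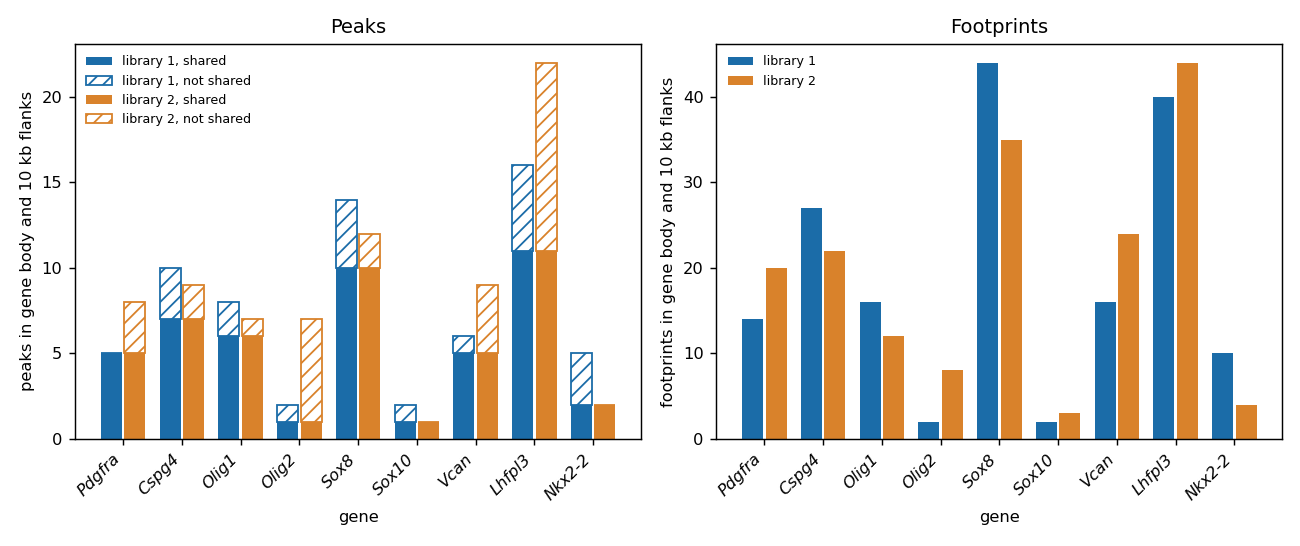
Number of peaks (left, solid where they overlap a peak of the other library and hatched where they do not) and of footprints (right) in the window of each of the 9 genes, with 1 bar per library. Lhfpl3 and Olig2 hold the largest hatched parts in library 2, 11 and 6 peaks, and Sox10 has 2 and 3 footprints.

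The 5′ ends of the 9 genes differed in CpG content. CpG dinucleotides are kept in many promoters that are open across cell types. The observed over expected CpG ratio over 500 bases on either side of the 5′ end was 0.82 for Olig1 and 0.756 for Olig2, in the upper part of all protein-coding genes (quartiles 0.218 and 0.768, median 0.552). It was 0.686 for Sox8, 0.65 for Lhfpl3, 0.624 for Nkx2-2 and 0.548 for Vcan. Pdgfra at 0.398, Cspg4 at 0.365 and Sox10 at 0.166 were lower. Of these 3, Pdgfra and Sox10 had no peak at the 5′ end and Cspg4 had a weak one. For Nkx2-2 the 5′ end is a noncoding start, with a peak in library 1 alone.

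Letters that oligodendrocyte factors are known to prefer stood near their share in all peaks. Searches covered 300 bases around the peak centre on both strands. CAGATG, an E-box bound by OLIG factors, was found in 29.4% of the peaks in library 1 and 22.1% in library 2, against 28.6% and 27.9% of all peaks. CATATG, the other such E-box, was found in 8.82% and 3.9%, against 6.57% and 6.14%. ACAAAG, a SOX site, was found in 19.1% and 19.5%, against 20.5% and 20.1%, and ACAATG in 11.8% and 9.09%, against 12.6% and 11.9%. CACTTGA, a site of NKX2 factors, was found in 4.41% and 3.9%, against 3.66% and 3.72%.

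Of the other motifs, those of NFI and TEAD lay above the share in all peaks in library 1 and below it in library 2. CAGCTG and the AP-1 and TCF sites lay below it in both libraries, and the SP site above it in both. CAGCTG was found in 16.2% and 22.1%, against 22.7% and 22.8%, and the NFI motif TTGGCA in 25% and 20.8%, against 21.2% and 20.9%. The AP-1 site TGANTCA was found in 14.7% and 7.79%, against 16.2% and 13.6%. The TEAD site GGAATG was found in 17.6% and 15.6%, against 16.2% in both libraries, and the TCF site ATCAAAG in 1.47% and 0%, against 3.51% and 3.39%. The GC-rich SP site GGGCGG was found in 33.8% and 28.6%, against 19.5% and 19.6%. The peaks of the 9 genes also had a higher median GC content, 56% and 54.3%, against 50% and 50.7% for all peaks, and the part of this in the SP share was not tested.

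Some matches lay within the footprints printed in capitals. In the Sox8 promoter both SP matches, on the minus strand, lay wholly within footprints of both libraries, as did the SP match of the Cspg4 intron. The SP match of the upstream Pdgfra peak had 5 of 6 bases there. Those of the alternative Pdgfra starts, the Olig1 promoter and the Lhfpl3 intron had 0. The CACTTGA match of the Lhfpl3 intron, on the minus strand, lay within a footprint at all 7 of its bases. By contrast, the ACAAAG match of the Vcan intron had 0 of 6 bases there. In named peaks not printed, the ACAAAG match downstream of Sox8 had 0 bases in footprints of both libraries. The CAGATG matches at the Vcan and Lhfpl3 starts also had 0, and that of the strongest Nkx2-2 peak had 2 of 6. The Olig1 and Olig2 promoters each held 2 CCAAT boxes, letters searched after the sequences were seen, and none of their bases lay in a footprint of both libraries. At least 2 CCAAT were found in 2.94% of the peaks of the 9 genes in library 1 and 9.09% in library 2, against 6.86% and 6.60% of all peaks and 9.37% and 8.91% of all promoter peaks.

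The CTCF core CCANNAGGG was found in 7.35% and 9.09% of the peaks of the 9 genes, against 7.63% and 7.87% of all peaks. A looser form, CCANNAG followed by any 2 bases and GG, was added after the printed sequences were seen and can overlap the core just given. It was found in 22.1% of the peaks in library 1 and 19.5% in library 2, against 14.5% of all peaks in each library. The peaks whose sequences prompted the looser form are counted in these shares, so the difference from all peaks is partly built in. In the peak at the alternative Pdgfra starts and in the Sox10 peak, all 11 bases of the match lay in footprints of both libraries. In the Vcan intron 9 of 11 did, and in the upstream Pdgfra peak 7 of 11. The form was added after these sequences were seen, so this overlap with footprints may be partly built in too. It was not compared with the overlap at other matches of the form.

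Further lists of the lineage and of another glial type were read by the same rule, where open at a start means a promoter peak. Of 20 further lineage genes, 18 were open at a start in both libraries (18 in library 1 and 19 in library 2), against 63.6% of all protein-coding genes, with a median promoter signal of 1.40 ± 0.017. The highest were Etv5 (9.14 ± 0.93) and Id4 (4.77 ± 0.303), both transcriptional regulators, and Sox11 (3.65 ± 0.543), a factor of neural progenitors. Neu4, a sialidase gene, had no promoter peak in either library. Gpr17, a receptor of committed precursors, named after its values were seen, had 0.351 in library 2 alone.

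Of 12 genes of mature, myelin-forming oligodendrocytes, 8 were open at a start in both libraries (9 and 8 by library), against the same 63.6%, with a median of 0.527 ± 0.0299. Mog, which encodes a myelin protein, and Opalin had none in either library, and Mobp, named after its values were seen, had 0.531 in library 1 alone. The highest were Mbp at 1.74 ± 0.299 and Cnp at 1.51 ± 0.435, both myelin genes, and Myrf at 1.33 ± 0.333, the transcriptional regulator of myelination. Of 12 astrocyte genes, 11 were open at a start in both libraries, the exception being Aqp4, again against 63.6%, with a median of 1.08 ± 0.0918. The highest were Aldoc at 2.48 ± 0.198, Sox9 at 2.29 ± 0.21, which the further lineage genes also include, and Slc1a2 at 1.98 ± 0.141. The median of the 9 genes was 1.33 ± 0.31, where the SD is over the libraries and not over genes, and no test between these lists was made.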

How the data were processed

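DNase-seq was analysed from the processed files of 2 libraries of 1 group. Per the labels and the deposited readme files, the authors made 2 peak lists, a footprint list and a per-base table for each library on mm10. The sources used here do not give the aligner, the peak caller, their cutoffs or how CAST alleles were handled when reads were placed. The deposited peak signal has no stated normalization. In the deposited per-base tables a false discovery rate (q-value) is listed for bases under 0.05 only, and footprints carry the q-value 0.01 in every line. The longer peak lists (132054 and 139799 peaks) were used, with the shorter ones (79331 and 84096) as an alternative.

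Peaks and footprints were counted where they overlapped a window by at least 1 base, and shared where they overlapped the other library by at least 1 base. The 9 genes, the other lists and the motifs were chosen with earlier results of these data known. All 9 genes are named, each with its strongest peak at a start and its strongest matched peak over 500 bases from every start, by mean signal. Of other lists, genes with no promoter peak and the 3 highest are named, and some items that this rule takes are left out of the text. Where RefSeq gives a promoter, for 7 of 9 genes, it was identical to the genome sequence used. Counting, sharing and matching were tested on simulated data. Python 3.11.15, numpy 2.4.6, pandas 2.3.3, scipy 1.17.1, matplotlib 3.10.9, pysam 0.24.0 and samtools 1.23.1 were used.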

Additional observations from a re-analysis of the deposited data

How the results depend on the processing

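The number of genes open at a start in both libraries, 7, was 6 with the shorter peak list or the stronger peaks by signal and stayed at 7 with promoter windows of 250 or 2000 bases. The median promoter signal was 0.789 with windows of 250 bases and 1.65 with 2000, against 1.33. Peaks in the windows, 72.5 per library on average, were 38 with the shorter list, 39.5 with the stronger peaks and 119.5 with flanks of 50 kb, where footprints were 278 against 171.5. The median density of 1.04 peaks per 10 kb was 0.455 with the shorter list, 0.607 with the stronger peaks and 2.09 without flanks. Among the stronger peaks the shared share was 85.7% in library 1 and 91.9% in library 2, and with the shorter list it was 65.9% in library 1 and 77.1% in library 2, against 70.6% and 62.3%. Of 45 promoter signals of single genes under alternatives 4 moved beyond the spread, as did 16 of 45 peak counts. This spread is the SD of the 2 libraries, so the alternatives that leave out a library could not move beyond it. They are counted among the 45 and say nothing on stability. No paired analysis was possible because there is 1 group. With 2 libraries, an unknown depth and no stated scale, weak or single-library peaks such as those of Nkx2-2 and Olig2 are the least certain values.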
